A study of Homo sapiens with 8 samples.

Results

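Gene expression in the libraries numbered replicate 1 was compared with that in the libraries numbered replicate 2, pair by pair, in MEG-01, a human megakaryoblast line that grew out of a leukaemia and is an established laboratory line. All 8 libraries of the series entered the comparison, 4 of each number, chosen by the digit that closes each library's name. They formed 4 pairs, and the groups were cells given Ceefourin 2 alone for 48 h, cells given PMA at 100 nM together with Ceefourin 2 at 20 µM for 48 h, cells given PMA at 100 nM alone for 48 h, and untreated cells. PMA (phorbol 12-myristate 13-acetate) activates protein kinase C and drives MEG-01 cells toward a megakaryocyte-like state, and Ceefourin 2 inhibits the efflux transporter ABCC4. The labels state no dose for the cells that had Ceefourin 2 without PMA. They also do not say whether the replicate number marks a culture, a day or a library preparation, so p-values measure the spread between these samples and no more. MEG-01 is an immature leukaemia line, which limits it as a model of normal megakaryocytes.

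Libraries held 44430292 to 63165554 expected counts in replicate 1 and 48595107 to 89950886 in replicate 2. The deepest was replicate 2 of PMA plus Ceefourin 2, against 52982156 in its replicate 1. Levels are CPM, the usual scaled share of a library's counts, after scaling between libraries by the trimmed mean of M values (TMM), and they compare the same gene between libraries, not different genes. Of the markers that define the line, ITGA2B (the platelet integrin subunit alpha IIb) was measured at 497 to 1860 CPM, TAL1 at 428 to 1334 CPM and GATA1 at 94.2 to 255 CPM over the 8 libraries. PF4, a granule protein of mature megakaryocytes, had at most 1 count, in a single library, and 0 in the other 7. Differences are log2 of replicate 1 over replicate 2, so a positive value means higher in replicate 1, and a gene was called at an adjusted p below 0.05.

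Several of the gene groups examined are known as programmes whose members are switched together. Cytosolic chaperones are induced by the factor HSF1 when proteins misfold or temperature shifts, interferon-stimulated genes by STAT and IRF factors, and amino acid synthesis genes by ATF4 when amino acids or redox balance are limiting. Ribosomal protein messages carry a shared 5′ terminal oligopyrimidine motif and are controlled together, and megakaryoblasts of this kind also express embryonic and fetal globins beside platelet genes. The comparison asked which of these, and which other genes, varied with the replicate number whatever the treatment.

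With the group held in the fit, 3074 of 17314 tested genes (17.8%) differed between replicate 1 and replicate 2 (edgeR quasi-likelihood test, Benjamini-Hochberg adjusted p below 0.05). Of these, 1473 (8.51% of those tested) were higher and 1601 (9.25%) lower in replicate 1. Most differences were small, with a median absolute log2 difference of 0.298 among called genes and a median standard error of 0.058. Only 162 of the called genes were more than 1.5-fold higher and 225 more than 1.5-fold lower, and 33 and 73 passed 2-fold. The sign was the same in all 4 pairs for 3040 of the 3074 called genes, and for 41.3% of all tested genes. The count rested most on the untreated pair, since it fell to 363 without untreated replicate 1 and to 378 without untreated replicate 2. It was 1238 and 1259 without replicate 1 or replicate 2 of PMA plus Ceefourin 2, 1829 and 1782 without those of PMA, and 2167 and 1979 without those of Ceefourin 2, where leaving out 1 library takes its pair out of the replicate term.

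A call lost with a library left out need not mean a smaller difference. Without untreated replicate 1 the median difference of heat shock genes was 0.254, against 0.202 with all 8 libraries. It was −0.447 against −0.378 for interferon-stimulated genes and −0.17 against −0.197 for ribosomal protein genes. For clock genes it was smaller, 0.123 against 0.278. Either library left out removes the same pair, so the 8 such runs are closer to 4 checks than to 8 separate ones. The pair differences moved together to an unequal degree. Over 13085 genes with a mean of at least 1 CPM, the correlation of the replicate 1 minus replicate 2 difference was 0.632 between the Ceefourin 2 and untreated pairs and 0.542 between the PMA plus Ceefourin 2 and PMA pairs. Across the PMA divide it was 0.286 to 0.37. These are correlations across genes, which are not independent replicates, and no library is shared between pairs. In single pairs the median absolute difference was 0.176 in Ceefourin 2 cells, 0.145 in PMA plus Ceefourin 2 cells, 0.143 in PMA cells and 0.163 in untreated cells. For comparison, the same measure for PMA plus Ceefourin 2 against PMA was 0.143 within replicate 1 and 0.144 within replicate 2 and the share of genes past 1.5-fold 8.12% and 8.25%. For the replicate step that share was 4.72% in PMA plus Ceefourin 2 and 4.68% in PMA cells. PMA against untreated cells gave 0.53 within replicate 1 and 0.495 within replicate 2.

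**Figure D1:**
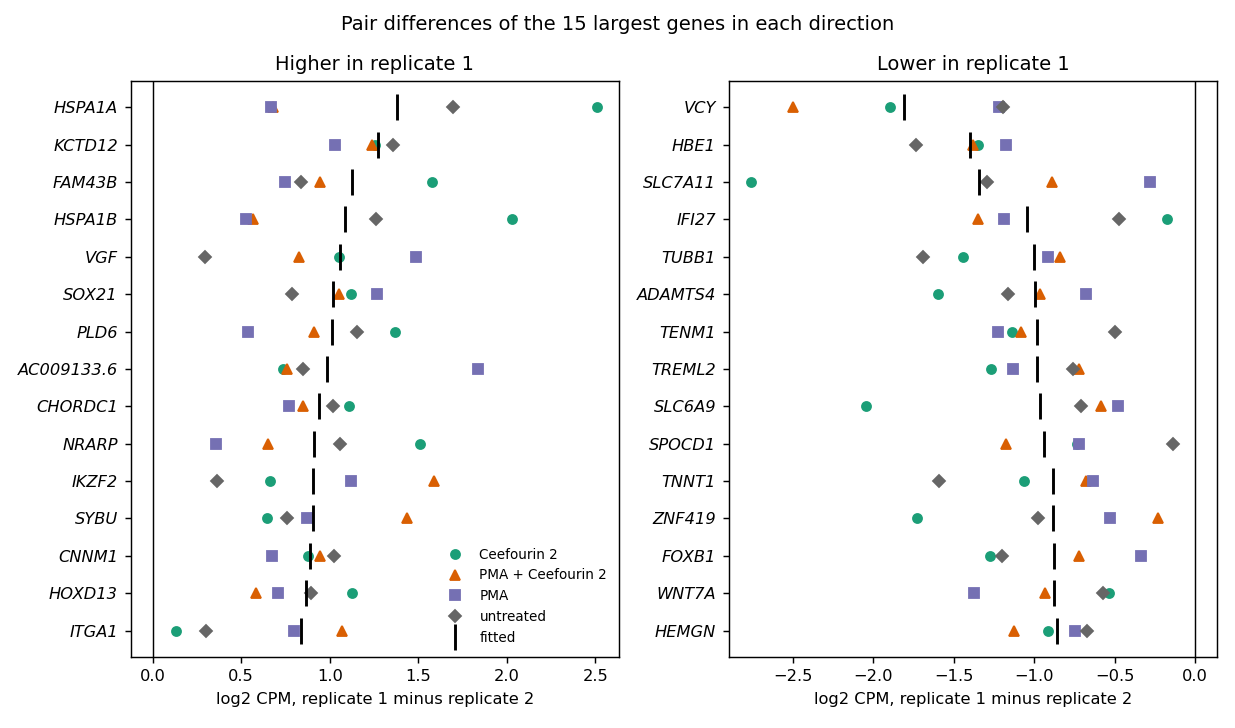
Pair differences (log2 CPM, replicate 1 minus replicate 2) of the 15 genes with the largest positive and the 15 with the largest negative fitted difference, with a symbol for each of the 4 groups and a black tick for the fitted value. All symbols of a gene lie on the same side of 0, which the choice of genes required, and HSPA1A and SLC7A11 spread most between groups, with HSPA1A at 2.51 in the Ceefourin 2 pair and 0.67 in the PMA pair.

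Among the genes furthest above 0 in replicate 1 were developmental and membrane genes as well as chaperones. KCTD12, an auxiliary subunit of GABA-B receptors encoded on chromosome 13 (GRCh38, chr13:76880166-76886390), had 19.2, 2.50, 1.58 and 20.4 CPM in replicate 1 of Ceefourin 2, PMA plus Ceefourin 2, PMA and untreated cells, against 8.04, 1.04, 0.757 and 7.94 CPM in replicate 2 of the same groups. Every pair was higher in replicate 1, although the level itself was several times lower in cells with PMA, so the 2 sets of 4 overlap (log2 difference 1.27 ± 0.08 SE, edgeR adjusted p = 0.0029). In the rest of the text, 4 values in a row follow that order of groups. The transcription factors SOX21 (1.02), HOXD13 (0.87) and IKZF2 (0.91), the Notch-feedback gene NRARP (0.91), the mitochondrial phospholipase PLD6 (1.01), the secreted neuropeptide precursor VGF (1.06) and the collagen-binding integrin subunit ITGA1 (0.84) were also higher in replicate 1. FAM43B (1.13), SYBU (0.91), CNNM1 (0.89) and 1 gene known only by the clone name AC009133.6 (0.98) complete the 15 with CHORDC1, HSPA1A and HSPA1B. AC009133.6 and NRARP lost the call without either untreated library (highest adjusted p = 0.0674 and 0.0866 in edgeR), and ITGA1 without either library of PMA plus Ceefourin 2 (highest 0.0782).

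On the other side stood HBE1, SLC7A11, IFI27, TUBB1 and HEMGN, described with their groups, and extracellular, membrane and nuclear genes. The aggrecan-degrading protease ADAMTS4 (−0.996), the teneurin TENM1 (−0.99), the receptor TREML2 (−0.98), the glycine transporter SLC6A9 (−0.96), SPOCD1 (−0.94), the slow skeletal troponin TNNT1 (−0.89), the zinc finger gene ZNF419 (−0.88), the forkhead factor FOXB1 (−0.87) and the ligand WNT7A (−0.87) were lower in replicate 1. VCY, also among the 15, has a near-identical copy between which counts can be split, and no level is given for it. Of the genes named here, TNNT1, ZNF419, FOXB1 and WNT7A lost the call without either untreated library (highest adjusted p = 0.0521, 0.146, 0.0762 and 0.0502). SLC6A9 lost it with any 1 library of the untreated or the PMA plus Ceefourin 2 pair left out (highest 0.122).

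Heat shock genes, of the 43 lists, had the largest share of members higher in replicate 1. Of 21 tested members, 13 were higher and 1 lower, with a median log2 difference of 0.20, against 8.51% higher, 9.25% lower and a median of −0.018 over all tested genes. The small heat shock protein HSPB1 was the member lower in replicate 1 (−0.18). The list's median was positive in each pair, at 0.32 in Ceefourin 2 cells, 0.16 in PMA plus Ceefourin 2 cells, 0.21 in PMA cells and 0.26 in untreated cells. Without either untreated library 4 members remained called in that direction, and by moderated tests on log2(TPM + 1) the count was 7. These are bulk libraries, in which a smaller share of cells of a kind and less RNA per cell cannot be told apart.

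HSPH1, which encodes the HSP110 nucleotide exchange factor for HSP70 (chr13:31134974-31162388), had 343, 293, 320 and 328 CPM in replicate 1, against 220, 199, 215 and 219 CPM in replicate 2. The lowest replicate 1 library lay above the highest of replicate 2 (log2 difference 0.59 ± 0.04 SE, edgeR adjusted p = 0.00279). CHORDC1, an HSP90 co-chaperone (chr11:90201160-90223364), was measured at 105, 76.2, 83.5 and 99.8 CPM in replicate 1, against 48.5, 42.3, 48.9 and 49.2 CPM in replicate 2. Replicate 2 was nearly flat across the 4 groups, and no library of it reached the lowest of replicate 1 (0.94 ± 0.06, adjusted p = 0.0029). HSPA8, the constitutive cytosolic HSP70, had 3984, 2667, 2708 and 3846 CPM in replicate 1 and 2967, 2235, 2235 and 2991 CPM in replicate 2. It was higher in replicate 1 in each pair, although the sets overlap through the lower level in cells with PMA (0.33 ± 0.04, adjusted p = 0.0049). FKBP4, an immunophilin of the HSP90 complex, had 339, 182, 183 and 327 CPM in replicate 1 against 274, 158, 153 and 264 CPM in replicate 2 (0.27 ± 0.04, adjusted p = 0.00688). These 4 genes were called with each library left out in turn.

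The stress-inducible HSP70 gene HSPA1A (chr6:31815464-31817946) had 485, 594, 593 and 411 CPM in replicate 1, against 85.0, 371, 373 and 127 CPM in replicate 2. Its pair difference was 2.51 in Ceefourin 2 cells and 1.70 in untreated cells, and 0.68 and 0.67 in PMA plus Ceefourin 2 and in PMA cells. The fitted difference was 1.38 ± 0.29 SE (adjusted p = 0.0219), and the pairs with PMA differed from those without (interaction −1.43 ± 0.21, adjusted p = 0.0166). HSPA1B, on the same chromosome, had 267, 221, 208 and 206 CPM in replicate 1 and 65.3, 149, 144 and 85.9 CPM in replicate 2. It is a near-identical copy of HSPA1A, so the split of counts between these genes is uncertain. Both lost the call without either untreated library (highest adjusted p = 0.107 for HSPA1A and 0.105 for HSPA1B). The HSP40 co-chaperone DNAJB1 (0.49) and the HSP70 cofactor BAG3 (0.63) also had an interaction with PMA, at −0.40 and −0.63.

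Promoters of the list are shown because HSF1 binds inverted repeats of the unit GAA, and they let the letters be seen beside the values above. The window is the 250 bases before the annotated start in RefSeq, build GRCh38.p14, written 5′ to 3′ on the gene's strand. The searched motifs were 2 units (GAANNTTC or TTCNNGAA, each its own reverse complement) and 3 units (GAANNTTCNNGAA, reverse complement TTCNNGAANNTTC), on both strands with overlapping matches counted. A match to 3 units also contains matches to 2. CHORDC1 lies at chr11:90223050-90223299, minus strand, and HSPA8 at chr11:123062137-123062386, minus strand, with capitals over the 3-unit matches. DNAJB1 lies at chr19:14518398-14518647, minus strand, and HSPA1A at chr6:31815293-31815542, plus strand, with capitals over the 2-unit matches.
CHORDC1: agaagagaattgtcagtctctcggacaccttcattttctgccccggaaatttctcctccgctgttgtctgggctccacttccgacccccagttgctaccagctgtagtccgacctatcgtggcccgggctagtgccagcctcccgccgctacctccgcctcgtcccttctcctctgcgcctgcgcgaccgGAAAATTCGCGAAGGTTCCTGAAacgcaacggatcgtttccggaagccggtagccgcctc
HSPA8: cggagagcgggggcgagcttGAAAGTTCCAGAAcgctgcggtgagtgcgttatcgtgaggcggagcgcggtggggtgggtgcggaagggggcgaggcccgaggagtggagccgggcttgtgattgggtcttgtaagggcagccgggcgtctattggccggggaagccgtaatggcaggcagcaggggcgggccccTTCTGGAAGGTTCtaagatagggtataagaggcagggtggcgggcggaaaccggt
DNAJB1: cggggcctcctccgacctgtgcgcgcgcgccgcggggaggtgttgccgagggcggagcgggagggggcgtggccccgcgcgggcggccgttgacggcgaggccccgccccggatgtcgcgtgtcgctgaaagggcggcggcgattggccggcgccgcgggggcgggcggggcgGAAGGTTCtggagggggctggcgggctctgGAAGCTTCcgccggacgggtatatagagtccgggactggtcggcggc
HSPA1A: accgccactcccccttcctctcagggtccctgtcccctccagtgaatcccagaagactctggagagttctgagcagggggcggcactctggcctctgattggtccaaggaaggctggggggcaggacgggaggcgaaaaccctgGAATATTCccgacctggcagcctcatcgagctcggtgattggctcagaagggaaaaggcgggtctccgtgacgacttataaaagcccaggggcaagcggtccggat

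CHORDC1 holds 3 overlapping 3-unit matches, beginning 60 to 50 bases before the start, and HSPA8 holds 2, at 230 and 55 bases. A RefSeq promoter was matched for 19 of the 21 tested heat shock genes, and 13 of them (68.4%) held the 2-unit motif, against 14% of 27305 genes in the table. The 3-unit motif was found in 6 of the 19 (31.6%), against 0.557% of genes. Among the 12 list members higher in replicate 1 that have a promoter in the table, 8 (66.7%) held the 2-unit motif. The 3-unit motif was in 3 of them (25%), so neither motif was more frequent there than in the list. The list was picked by known membership of the heat shock response, which is not independent of these motifs. These are matches of letters and say nothing of whether a factor was bound.

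In the other direction stood the translation apparatus. Of 73 cytosolic ribosomal protein genes, 65 were lower in replicate 1 and 0 higher in the edgeR test, and 70 had the same sign in all 4 pairs. The median difference was −0.20, with members between −0.38 and −0.105, and pair medians of −0.15 in Ceefourin 2, −0.23 in PMA plus Ceefourin 2, −0.22 in PMA and −0.22 in untreated cells. RPL10, a subunit protein encoded on chromosome X, had 1432, 1764, 1654 and 1413 CPM in replicate 1, against 1899, 2311, 2082 and 1853 CPM in replicate 2. The highest replicate 1 library lay below the lowest of replicate 2 (−0.38 ± 0.03 SE, adjusted p = 0.0042). RPLP0 of the ribosomal stalk (−0.28, adjusted p = 0.00481) and RPL10A (−0.29, 0.00481) also had no overlap between the sets, while RPL13A differed by −0.26 (0.00482).

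Ribosomal protein genes have many processed pseudogenes, and reads that fit several copies were divided by the authors' quantification. In all counts, this class took 7.77%, 6.97%, 6.46% and 7.88% in replicate 1, against 8.6%, 8.09%, 7.7% and 9.09% in replicate 2. The difference averaged −1.1 percentage points ± 0.19 (SD, n = 4 pairs), lower in 4 of 4 pairs, with p = 0.125 in an exact two-sided permutation test, the smallest that 4 pairs allow. Without the mitochondrially encoded counts it was −1.041 points. The count of called members was 39 with an offset for transcript length and GC content, 12 without either untreated library and 1 by limma on log2(TPM + 1), with the median below 0 in each of these.

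Of 24 tested translation factors, 12 were lower and 1 higher in replicate 1, with a median of −0.108. EEF1A1, which delivers aminoacyl-tRNA to the ribosome, had 20250, 22850, 19160 and 20630 CPM in replicate 1, against 23150, 26720, 22980 and 24960 CPM in replicate 2. The highest replicate 1 library, at 22850 CPM, lay just below the lowest of replicate 2, at 22980 CPM (−0.24 ± 0.03, adjusted p = 0.00482). EEF1G (−0.23), EEF2 (−0.27) and EIF4B (−0.24) were lower too, the last 2 without a call when either untreated library was left out (highest adjusted p = 0.0613 and 0.0762). Without either untreated library 2 of the list's members remained called, and with the length and GC offset 6 did.

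**Figure D2:**
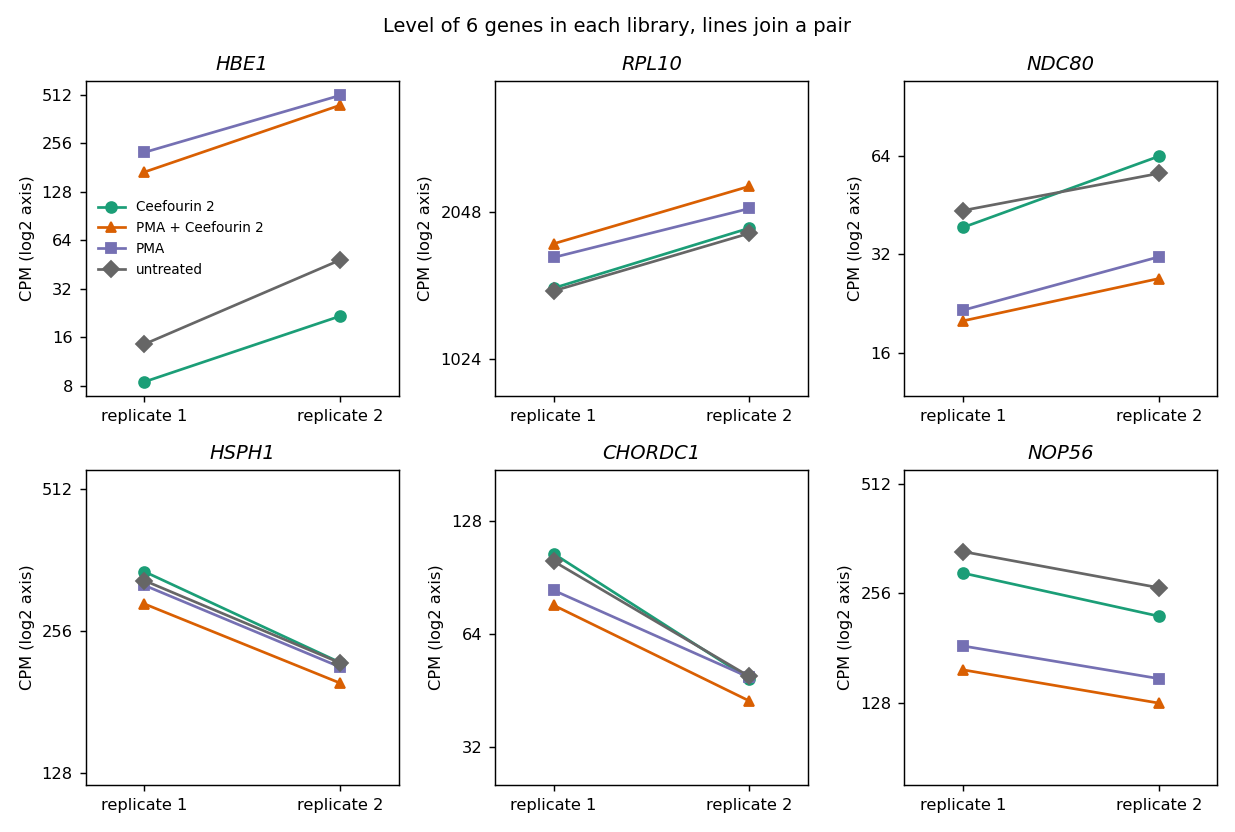
CPM on a log2 axis of HBE1, RPL10, NDC80, HSPH1, CHORDC1 and NOP56 in each library, with a line joining replicate 1 on the left and replicate 2 on the right of each of the 4 groups. Lines of HBE1, RPL10 and NDC80 slope upward to the right and those of HSPH1, CHORDC1 and NOP56 downward, while the level of HBE1 differs far more between groups (8.47 to 224 CPM in replicate 1) than within a pair.

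Of 28 tested ribosome assembly genes, 8 were higher and 1 lower in replicate 1, with a median of 0.094 and a pair median of −0.001 in PMA plus Ceefourin 2 cells. NOP56, a core protein of box C/D snoRNPs that guide rRNA methylation, had 291, 158, 183 and 333 CPM in replicate 1, against 221, 128, 149 and 265 CPM in replicate 2. Each pair was higher in replicate 1, with overlap between the sets (0.33 ± 0.04, adjusted p = 0.00481). The RNA polymerase I subunits POLR1B (0.42) and POLR1A (0.32) and the rRNA methyltransferase NOP2 (0.35) were higher as well, and these 4 genes were called with each library left out in turn.

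Of 48 nuclear genes of oxidative phosphorylation, 23 were lower in replicate 1 and 0 higher in edgeR, with a median of −0.15. COX5B, a subunit of cytochrome c oxidase, had 126, 139, 143 and 131 CPM in replicate 1, against 147, 174, 180 and 155 CPM in replicate 2. No replicate 1 library reached the lowest of replicate 2 (−0.28 ± 0.04, adjusted p = 0.00688). ATP5MC2 of ATP synthase (−0.21), COX6A1 (−0.20) and NDUFA13 of complex I (−0.19) were also lower. The list held 10 such calls under the length and GC offset and 0 without either untreated library, where COX5B had an adjusted p of up to 0.0508. Among 31 genes of mitochondrial transcription and translation, 5 were higher and 4 lower, with the helicase TWNK (0.35), the polymerase POLG (0.17) and the RNA polymerase POLRMT (0.21) higher and the ribosomal protein MRPL37 (−0.19) lower. All of these lost the call without either untreated library (highest adjusted p 0.0793 to 0.104), and POLG, POLRMT and MRPL37 without some treated libraries too.

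The embryonic globin gene HBE1 and the fetal globin gene HBG2 were lower in replicate 1. The erythroid list had 14 of 38 members lower and 1 higher, with a median of −0.195, and 8 remained called lower without either untreated library. HBE1, the embryonic epsilon globin gene on chromosome 11, had 8.47, 169, 224 and 14.5 CPM in replicate 1, against 21.7, 440, 507 and 48.3 CPM in replicate 2. Each pair was lower in replicate 1, and the sets overlap because the level was many times higher in cells with PMA (−1.40 ± 0.08 SE, adjusted p = 0.00279). HBG2, a fetal gamma globin, had 1021, 9095, 11130 and 2068 CPM in replicate 1, against 1223, 11990, 13290 and 2646 CPM in replicate 2 (−0.32 ± 0.04, adjusted p = 0.00481). The annotated spans of HBE1 and HBG2 overlap, and HBG2 has a near-identical neighbour, so counts in this cluster are uncertain in how they were split.

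HEMGN, a nuclear protein of haematopoietic progenitors, had 2.74, 7.27, 26.4 and 7.67 CPM in replicate 1, against 5.20, 15.9, 44.4 and 12.2 CPM in replicate 2 (−0.86 ± 0.09, adjusted p = 0.00437). The carbonic anhydrase CA1 differed by −0.42 (adjusted p = 0.00481). These 4 erythroid genes were lower in every pair and were called with each library left out in turn. The transcription factors of these lineages did not move one way, with 4 of 23 higher and 4 lower. GFI1B, a repressor needed for both lineages, had 122, 375, 414 and 100 CPM in replicate 1 and 153, 466, 509 and 127 CPM in replicate 2 (−0.32, adjusted p = 0.00458). IKZF1, the lymphoid and progenitor factor Ikaros, had 100, 14.6, 18.9 and 138 CPM in replicate 1 and 70.7, 11.4, 15 and 102 CPM in replicate 2 (0.42, adjusted p = 0.00481). MYB (0.20) and CEBPA (0.48) were higher in replicate 1 and lost the call without either untreated library (highest adjusted p = 0.0597 and 0.0735), MYB also without either library of PMA plus Ceefourin 2.

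Platelet surface and granule genes had 13 of 37 tested members lower in replicate 1 and 1 higher, with a median of −0.21. TUBB1, the beta tubulin of the platelet marginal band, had 0.109, 46.7, 62.6 and 0.831 CPM in replicate 1, against 0.354, 83.5, 118 and 2.76 CPM in replicate 2. All 4 pairs were lower in replicate 1, in the groups with PMA, where the gene was highest, and in those without (−1.002 ± 0.12, adjusted p = 0.00531). MYLK, myosin light chain kinase, had 59.0 and 92.4 CPM in replicate 1 of PMA plus Ceefourin 2 and PMA, against 87.5 and 135 CPM in replicate 2 of those groups (−0.60, adjusted p = 0.00531). P-selectin SELP (−0.71) and the scavenger receptor CD36 (−0.34) were lower too, with adjusted p of up to 0.108 and 0.0589 without an untreated library. Fitted on the pairs with PMA alone, 17 of the list were lower and 3 higher, and on the pairs without PMA, 5 lower and 2 higher, while 3 remained without either untreated library. Among the line's defining markers, ITGA2B differed by −0.25 (edgeR adjusted p = 0.0144) and its partner ITGB3 by 0.087 (adjusted p = 0.168). GATA1 (−0.13, adjusted p = 0.0487) and GP9 (−0.69, adjusted p = 0.0466) were called lower, as was GFI1B. GP9 had at most 4.951 CPM, and TAL1 was not called (0.0755, adjusted p = 0.295).

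Of 41 tested interferon-stimulated genes, 18 were lower in replicate 1 and 1 higher, with a median of −0.38. IFIT3, an antiviral tetratricopeptide protein on chromosome 10, had 2.88, 21.4, 22.4 and 3.82 CPM in replicate 1, against 4.14, 37.5, 38.8 and 5.33 CPM in replicate 2 (−0.68 ± 0.08 SE, adjusted p = 0.00481). IFITM1, a membrane restriction factor, had 55.5, 23.6, 19.5 and 44.2 CPM in replicate 1, against 72.9, 34.1, 33.0 and 59.8 CPM in replicate 2 (−0.53 ± 0.07, adjusted p = 0.00565). Both were lower in each pair, IFIT3 at higher levels in cells with PMA and IFITM1 at lower levels there. IRF9, the DNA-binding subunit of ISGF3, had 3.69, 23.4, 22.9 and 3.33 CPM in replicate 1, against 4.74, 35.8, 37.98 and 5.86 CPM in replicate 2 (−0.64, adjusted p = 0.00538). OASL differed by −1.18, and these 4 were called with each library left out in turn.

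The size of the interferon difference varied with PMA. The list's pair medians were −0.49 in PMA plus Ceefourin 2 and −0.55 in PMA cells, and −0.091 in Ceefourin 2 and −0.078 in untreated cells, and 11 members had a negative interaction with PMA. IFI27 had 7.94 and 15.8 CPM in replicate 1 of PMA plus Ceefourin 2 and PMA, against 20.3 and 36.2 CPM in replicate 2, while in Ceefourin 2 and untreated cells it had 0.623 and 0.977 CPM in replicate 1 and 0.709 and 1.37 CPM in replicate 2. Its interaction was −0.91 (adjusted p = 0.0447). Fitted on the pairs with PMA alone, 31 members were lower and 1 higher, and on the pairs without PMA, 7 lower and 4 higher. With any 1 library of the PMA or the untreated pair left out the count was 9. The antigen-presenting gene HLA-B had 8.51, 58.0, 33.1 and 6.24 CPM in replicate 1, against 11.5, 82.5, 54.8 and 9.60 CPM in replicate 2 (−0.57, edgeR adjusted p = 0.00481). The MHC list did not move one way, with a median of 0.073, and 5 members higher and 4 lower in all 4 pairs. Of its 20 tested members 4 were called lower and 1 higher, the class II activator CIITA (1.08). CIITA was not called with any 1 library left out (adjusted p 0.0501 to 0.123).

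Promoters of IFIT1 and IFITM1 are shown because many such genes carry an interferon-stimulated response element, to which ISGF3 binds. No level or difference is given for IFIT1, and its promoter does not stand for a gene lower in replicate 1. The searched letters were GAAANNGAAA and its reverse complement TTTCNNTTTC on both strands, with overlapping matches counted, and capitals mark the matches in the 250 bases before the start (RefSeq, GRCh38.p14, plus strand in both). IFIT1 lies at chr10:89392373-89392622 and IFITM1 at chr11:313790-314039.
IFIT1: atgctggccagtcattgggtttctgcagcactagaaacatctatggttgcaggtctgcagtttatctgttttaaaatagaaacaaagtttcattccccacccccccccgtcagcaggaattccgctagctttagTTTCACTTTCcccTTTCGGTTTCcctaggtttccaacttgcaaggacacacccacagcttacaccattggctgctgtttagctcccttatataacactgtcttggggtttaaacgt
IFITM1: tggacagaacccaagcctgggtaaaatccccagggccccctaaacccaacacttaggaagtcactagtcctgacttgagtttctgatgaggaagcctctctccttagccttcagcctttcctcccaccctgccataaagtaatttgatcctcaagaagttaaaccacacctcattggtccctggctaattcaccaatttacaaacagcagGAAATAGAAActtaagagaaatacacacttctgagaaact

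IFIT1 holds 2 matches, at 116 and 103 bases before the start, and IFITM1 holds 1, at 40 bases. A promoter was matched for 30 of the 41 list genes, and 21 of them (70%) held the motif, against 3.71% of all genes in the table. Of the 11 that were lower in replicate 1, 9 held it. The rule that picked the list, known membership of the interferon response, is not independent of that motif.

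**Figure D3:**
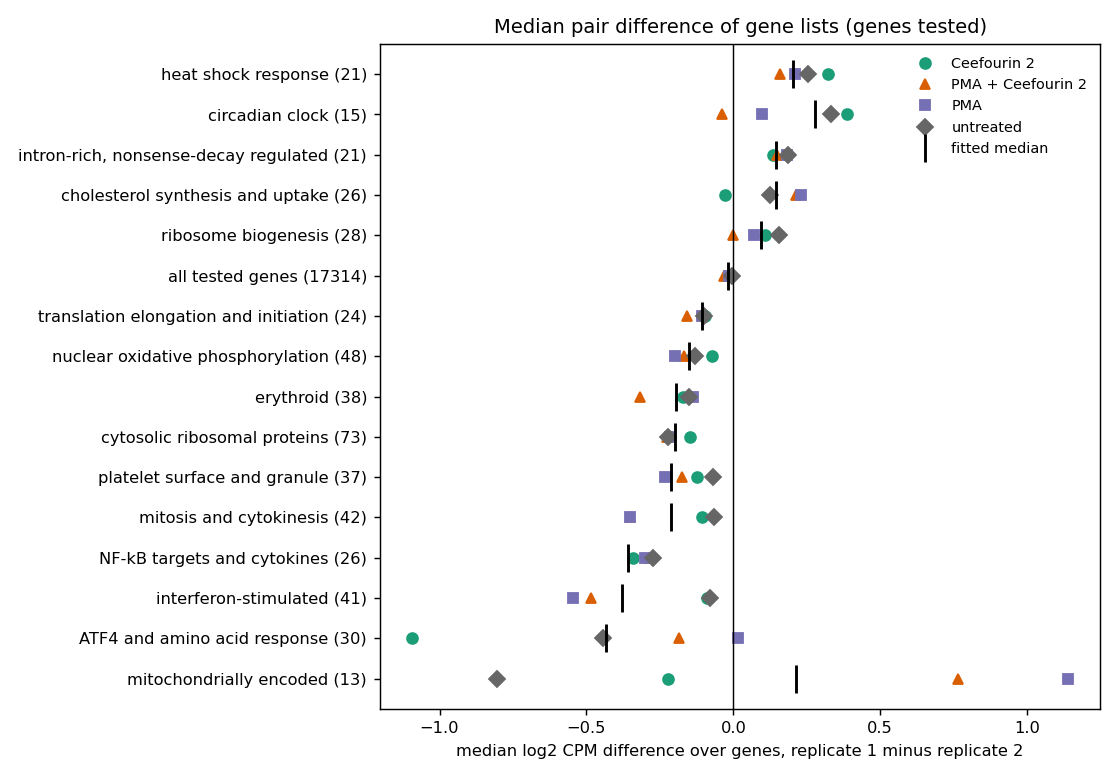
Median pair difference (log2 CPM, replicate 1 minus replicate 2) over the tested genes of 15 lists and of all tested genes, with a symbol for each group, a black tick for the median fitted difference and the number of genes in brackets. The heat shock symbols lie right of 0 and those of the cytosolic ribosomal proteins left of it in every group, while the mitochondrially encoded genes spread from −0.81 in untreated to 1.14 in PMA cells.

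Targets of NF-kB and cytokines had 10 of 26 members lower and 1 higher in replicate 1, with a median of −0.36 and similar pair medians of −0.34, −0.29, −0.30 and −0.27. NFKBIA, the inhibitor IκBα and itself a target, had 9.56, 25.8, 28.5 and 11.5 CPM in replicate 1, against 15.02, 31.5, 38.4 and 16.1 CPM in replicate 2 (−0.46, adjusted p = 0.00855). The chemokine CXCL8 had 4.67, 114, 64.8 and 1.93 CPM in replicate 1, against 5.58, 186, 86.1 and 3.54 CPM in replicate 2 (−0.54, adjusted p = 0.0113). The adhesion molecule ICAM1 (−0.60) and the prostaglandin synthase PTGS2 (−0.73) were lower as well. Each pair of these 4 genes was lower in replicate 1, but without either untreated library 0 members were called lower (edgeR, highest adjusted p of 0.0525 to 0.061 for the 4 named).

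Immediate early genes and MAPK feedback regulators had 11 of 38 lower and 1 higher, with a median of −0.17. BTG2, an antiproliferative gene, had 9.05, 98.4, 142 and 7.90 CPM in replicate 1, against 12.7, 152, 236 and 13.1 CPM in replicate 2. It was lower in each pair and was called with each library left out (−0.65 ± 0.05, adjusted p = 0.00415). The mRNA-decay factor ZFP36 (−0.48) and the phosphatases DUSP6 (−0.51) and DUSP8 (−0.75) were also lower, with adjusted p of up to 0.0524, 0.0833 and 0.0717 without an untreated library. Interactions with PMA ran both ways in this list, 5 positive and 7 negative.

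Of the cell cycle lists, 18 of 42 mitosis genes were lower in replicate 1 and 0 higher in edgeR (median −0.21), and 10 of 41 DNA replication genes were lower and 1 higher (median −0.103). The DNA replication pair medians were −0.027 in Ceefourin 2 and −0.002 in untreated cells. NDC80, a kinetochore subunit, had 38.6, 20.1, 21.6 and 43.5 CPM in replicate 1, against 63.6, 27.0, 31.4 and 56.5 CPM in replicate 2 (−0.52 ± 0.07, adjusted p = 0.00555). CCNB2 (cyclin B2, −0.44), the spindle checkpoint kinase TTK (−0.45) and the licensing factor CDT1 (−0.39) were lower in each pair and called with each library left out. PTTG1 (securin, −0.26), LIG1 (−0.28), POLD1 (−0.23) and TK1 (−0.32) were lower with all 8 libraries in the fit. PTTG1 lost the call without either untreated library (highest adjusted p = 0.0655). LIG1 and TK1 kept it only without a Ceefourin 2 library, in 2 of 8 cases (highest 0.0632 and 0.0796), and POLD1 had adjusted p of 0.05 to 0.0835 with 1 library left out. The mitosis medians were −0.35 in PMA plus Ceefourin 2 and −0.35 in PMA cells, and −0.105 in Ceefourin 2 and −0.066 in untreated cells, with 10 members of each list having a negative interaction with PMA. Fitted on the pairs with PMA alone 33 mitosis genes were lower, on those without PMA 10 were lower and 2 higher, and 4 remained without either untreated library.

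Of the 14 tested replication-dependent histone genes, 1 was lower, the linker histone HIST1H1C (−0.46). The p53 targets had 1 of 22 higher and 4 lower, with CCNG1 at −0.25 and the stress cytokine GDF15 at −1.25. Both were called with each library left out, while the antiproliferative BTG1 (−0.56) and GADD45A (−0.45) were not (highest adjusted p = 0.0963 and 0.101).

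Of 15 tested clock genes, 5 were higher in replicate 1 and 0 lower in edgeR, with a median of 0.28. NR1D1, the repressor REV-ERBα, had 13.8, 5.77, 6.99 and 14.5 CPM in replicate 1, against 6.27, 4.47, 5.64 and 6.32 CPM in replicate 2. The pair difference was 1.13 in Ceefourin 2 and 1.20 in untreated cells, and 0.36 and 0.31 in PMA plus Ceefourin 2 and PMA cells (0.77 ± 0.17, adjusted p = 0.0224, interaction −0.83, adjusted p = 0.0168). PER3, a negative arm component, had 12.8, 4.77, 4.54 and 10.7 CPM in replicate 1, against 6.78, 3.92, 3.81 and 6.94 CPM in replicate 2 (0.54 ± 0.12, adjusted p = 0.0244). CRY2 (0.35), CLOCK (0.33) and the output factor DBP (0.51) were higher as well. The pair medians were 0.39 and 0.33 in Ceefourin 2 and untreated cells, and −0.040 and 0.097 in PMA plus Ceefourin 2 and PMA cells, and 0 members were called higher without either untreated library. Fitted on the pairs with PMA alone 2 were higher with a median of 0.04, and on those without PMA 7 were higher and 1 lower.

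Of 21 splicing-linked genes with retained introns or nonsense-decay control, 10 were higher in replicate 1 and 1 lower, with a median of 0.145. AKAP17A, a splicing-associated kinase anchor, had 53.1, 57.9, 52.2 and 43.5 CPM in replicate 1, against 34.4, 40.4, 37.9 and 31.3 CPM in replicate 2 (0.52 ± 0.05, adjusted p = 0.0042). NKTR, a cyclophilin with an SR domain, had 55.0, 55.3, 59.0 and 67.6 CPM in replicate 1, against 37.0, 40.8, 45.4 and 43.1 CPM in replicate 2 (0.51, adjusted p = 0.00481). In both the sets of 4 did not overlap, and the helicase DDX17 (0.37) and RSRP1 (0.51) were higher too. Core spliceosome genes had 4 of 34 higher and 5 lower. SRSF11 had 360, 411, 441 and 376 CPM in replicate 1, against 273, 329, 340 and 286 CPM in replicate 2 (0.37 ± 0.03, adjusted p = 0.0042), while SNRPB (−0.28) and the kinase CLK1 (−0.39) were lower.

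Cholesterol synthesis and uptake genes had 8 of 26 higher and 1 lower, with a median of 0.144. SQLE, squalene epoxidase, had 1113, 2695, 2659 and 740 CPM in replicate 1, against 933, 2103, 2219 and 591 CPM in replicate 2 (0.30 ± 0.03, adjusted p = 0.00482). MSMO1 (0.44), HMGCS1 (0.43) and IDI1 (0.21) were higher as well, and 8 members had a positive interaction with PMA. SREBF1, the gene of the lipogenic regulator SREBP-1, went the other way with 117, 143, 199 and 128 CPM in replicate 1, against 190, 198, 253 and 176 CPM in replicate 2 (−0.49 ± 0.06, adjusted p = 0.00511). In fatty acid synthesis 2 of 17 were higher, ACACA (0.21) and SCD (0.18), and 1 lower. SQLE and SREBF1 were called with each library left out, and MSMO1, IDI1, HMGCS1, ACACA and SCD were not (highest adjusted p = 0.0534, 0.0612, 0.0582, 0.151 and 0.149).

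Genes of the ATF4 and amino acid response had the lowest median of the 43 lists, −0.43, but 4 of 30 were called lower. SLC7A11, the cystine importer, had 14.9, 10.6, 10.1 and 19.2 CPM in replicate 1, against 101, 19.7, 12.2 and 47.2 CPM in replicate 2. Replicate 2 of Ceefourin 2 stood far above the other 7 libraries (−1.35 ± 0.35, adjusted p = 0.0384, up to 0.149 with a library left out). The folate enzyme MTHFD2 had 285, 112, 111 and 302 CPM in replicate 1, against 475, 130, 127 and 370 CPM in replicate 2 (−0.36, adjusted p = 0.0306), and ATF5 (−0.26) and CBS (−0.32) were lower too. The list's pair medians were −1.09 in Ceefourin 2, −0.19 in PMA plus Ceefourin 2, 0.015 in PMA and −0.44 in untreated cells. Fitted on the pairs without PMA alone, 25 members were lower, on those with PMA 5 lower and 3 higher, and without either library of PMA plus Ceefourin 2, 0 in edgeR. With no filter on low counts and all 8 libraries in the fit, 23 members were called lower. The 5 members with a positive interaction, named after their values were seen, were ATF4 (0.77), DDIT3 (1.72), CHAC1 (4.14), SESN2 (2.63) and PSPH (1.38).

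TXNIP, a glucose-responsive inhibitor of thioredoxin, had 116, 364, 148 and 114 CPM in replicate 1, against 294, 437, 175 and 217 CPM in replicate 2 (−0.69 ± 0.17, adjusted p = 0.0352, interaction 0.88). Of its 7 tested family and regulator genes, 2 were higher, MLXIP (0.33) and MLX (0.21), and 1 lower. Endoplasmic reticulum chaperones had 5 of 21 higher and 0 lower in edgeR, with a median of 0.061, led by DNAJC3 (0.31), MANF (0.26), HSPA5 (0.26) and EDEM1 (0.24). TXNIP lost the call without either untreated library or Ceefourin 2 replicate 1 (highest adjusted p = 0.163), and MANF without either untreated library (0.0581). HSPA5 kept it only without a library of PMA plus Ceefourin 2 and EDEM1 only without one of Ceefourin 2, each in 2 of 8 cases (highest 0.112 and 0.121).

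ABCC4, the target of Ceefourin 2 and the transporter the series is about, had 387, 697, 594 and 344 CPM in replicate 1, against 364, 632, 544 and 305 CPM in replicate 2. Each pair was higher in replicate 1 by a small step (0.13 ± 0.03 SE, adjusted p = 0.0362). The gene lies at chr13:95019829-95301475, and the median over the 314 tested genes of chromosome 13 was 0.073. With the length and GC offset the difference was 0.091 (adjusted p = 0.114), and with 1 library left out it was called in 1 of 8 cases (highest adjusted p = 0.117). Of 22 tested ABC transporters 3 were higher and 2 lower. The glutathione-conjugate pump ABCC1 had 150, 164, 176 and 158 CPM in replicate 1, against 124, 129, 134 and 108 CPM in replicate 2, with no overlap between the sets (0.39 ± 0.05, adjusted p = 0.00638). ABCC5 (0.27) was higher and the porphyrin transporter ABCB6 (−0.29) lower, ABCC5 without a call when either untreated library was left out (highest 0.0917) and ABCB6 with any 1 library left out (0.0651 to 0.11). The sterol exporter ABCG1, low throughout, had 0.0935, 0.67, 0.339 and 0 CPM in replicate 1, against 0.258, 3.52, 1.73 and 0.114 CPM in replicate 2 (−2.29, adjusted p = 0.00509).

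Counts of called members here and for the lists above come from the edgeR fit of all 8 libraries unless another is named. They stand beside 8.51% of all tested genes called higher and 9.25% called lower. Counts from other fits stand beside other totals. By limma on log2(TPM + 1) these were 319 higher and 111 lower of 17314 genes. For the pairs with PMA they were 1539 and 1560 of 16447, and for those without PMA 2167 and 1805 of 16103. Interaction calls stand beside 1.31% positive and 2.63% negative. With a library left out the totals were smaller, most of all without an untreated one. Whether any list differed from the shares over all genes was not tested. NRF2 targets had 2 of 26 higher and 5 lower, with members between −1.345 and 0.466, and AKR1C3 (−0.39) and FTL (−0.16) among the lower ones. Metallothionein and zinc genes had 3 of 9 lower and 0 higher in edgeR (MT1E −0.25), lysosome and autophagy genes 8 of 31 lower and 0 higher (GABARAPL1 −0.32), and proteasome genes 2 of 31 lower and 0 higher. Glycolysis and hypoxia genes had 1 of 36 higher, HK2 (0.41), and 4 lower, with PDK1 at −0.34. KRAB zinc finger genes had 2 of 38 higher and 9 lower with a median of −0.146, as ZNF37A (0.29) and ZNF254 (−0.37) show. Nuclear and snoRNA-host long noncoding RNAs had 1 of 21 higher and 6 lower, among them ZFAS1 (−0.25) and NORAD (−0.25). Integrin and matrix genes had 4 of 27 higher, with ITGA4 at 0.35, and 1 lower, actin and YAP genes 4 of 18 lower and 0 higher, and aryl hydrocarbon receptor genes 2 of 6 higher, AHR (0.35) and NQO1 (0.47), and 0 lower. NQO1 was not called with any 1 library left out (adjusted p 0.0588 to 0.0836). PDK1 and ITGA4 were called with each library left out in turn, and the other genes named with these lists lost the call without either untreated library, FTL, MT1E and NORAD also without either library of PMA plus Ceefourin 2. Of the lists with 0 calls in a direction in edgeR, those with members at an unadjusted p below 0.05 there were the clock (2 lower), aryl hydrocarbon receptor (1 lower), lysosome (4 higher) and metallothionein genes (1 higher), and the endothelial (3 lower), lymphoid (1 lower) and fibroblast markers (1 lower). For ribosomal protein, oxidative phosphorylation, mitosis and ATF4 genes there were 0 at that p, and DESeq2 also called 0.

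Markers of other cell types were summed in each library. Over 14 monocyte and macrophage markers the level was 192 to 552 CPM in replicate 1 and 225 to 613 CPM in replicate 2. Most of it was CD68, at 164 to 548 CPM without TMM scaling. On that scale ITGAM had 3.05 to 58.0 CPM and LYZ 19.6 to 36.3, while CD14 had at most 0.456 and CSF1R at most 0.988. CD163 and MARCO were at 0 in all libraries, and 1 of 7 tested markers was higher and 1 lower. The 12 lymphoid markers summed to 1.13 to 2.06 CPM in replicate 1 and 1.00 to 2.76 CPM in replicate 2, with CD3E and MS4A1 at 0. The 9 fibroblast markers summed to 2.12 to 161 CPM in replicate 1 and 2.47 to 171 CPM in replicate 2. Without TMM scaling, PDGFRA reached 105 CPM, COL1A1 48.3 and the next highest, ACTA2, 4.18. The 11 endothelial markers summed to 441 to 1306 CPM and 466 to 1309 CPM, with CLDN5 at 0. Without TMM scaling, PECAM1 had 85.8 to 543 CPM, TIE1 118 to 348 and ESAM 63.0 to 195. KDR had 28.2 to 102 and ENG 61.4 to 95.7, while CDH5 had at most 0.434 and VWF at most 9.72. No tested lymphoid (0 of 3) or fibroblast (0 of 5) marker was called in edgeR, and 1 of 10 endothelial markers was, TEK (0.42). The 11 mast cell and basophil markers summed to 841 to 1258 CPM in replicate 1 and 721 to 1337 CPM in replicate 2, with CPA3 (−0.64) and ENPP3 (−0.19) lower and HDC (0.16) higher. The 8 epithelial markers summed to 46.9 to 141 CPM in replicate 1 and 54.5 to 162 CPM in replicate 2, with KRT5, KRT14 and KRT19 at 0 and KRT8 (−0.41) lower. TEK and CPA3 were called with each library left out in turn, ENPP3 and KRT8 in 4 of 8 cases and HDC in 1. Whether other cells had a part in the differences was not tested.

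Whether the replicate difference itself depended on treatment was tested by an interaction. With PMA it was called for 683 of 17314 genes (3.94%), 227 positive (1.31%) and 456 negative (2.63%), where positive means a larger replicate 1 minus replicate 2 difference in the pairs with PMA. Of the 683, 440 had opposite signs in the pairs with and without PMA, and 118 were also called in the replicate term. With Ceefourin 2 the count was 0 in edgeR, with 237 genes at an unadjusted p below 0.05 and 1 call by DESeq2. The common biological coefficient of variation was 13.6% with group means alone, 8.28% with the replicate number added and 5.05% with its interaction with PMA. Leaving out 1 library gave 181 to 957 interaction calls, the lowest without Ceefourin 2 replicate 2 and the highest without untreated replicate 1.

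All 13 mitochondrially encoded genes had a positive interaction with PMA, with a median of 1.42. MT-CO1, the catalytic subunit of cytochrome c oxidase, had 6369, 27250, 29450 and 5699 CPM in replicate 1, against 7004, 14830, 12650 and 8698 CPM in replicate 2. It was higher in replicate 1 in both pairs with PMA and lower in both pairs without (interaction 1.42 ± 0.15 SE, adjusted p = 0.0085), and so had no call for the replicate number as such (0.34, adjusted p = 0.436). MT-ND3 was the only one of the 13 higher in replicate 1 in all 4 pairs, with 336, 971, 1094 and 354 CPM in replicate 1, against 262, 513, 467 and 308 CPM in replicate 2 (0.68 ± 0.16, adjusted p = 0.0277, up to 0.0924 with a library left out). As a share of all counts, mitochondrially encoded genes took 2.29%, 6.93%, 7.98% and 2.07% in replicate 1, against 2.68%, 4.07%, 3.72% and 3.33% in replicate 2. With these genes removed before scaling, 3104 genes were called between the replicates.

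**Figure D4:**
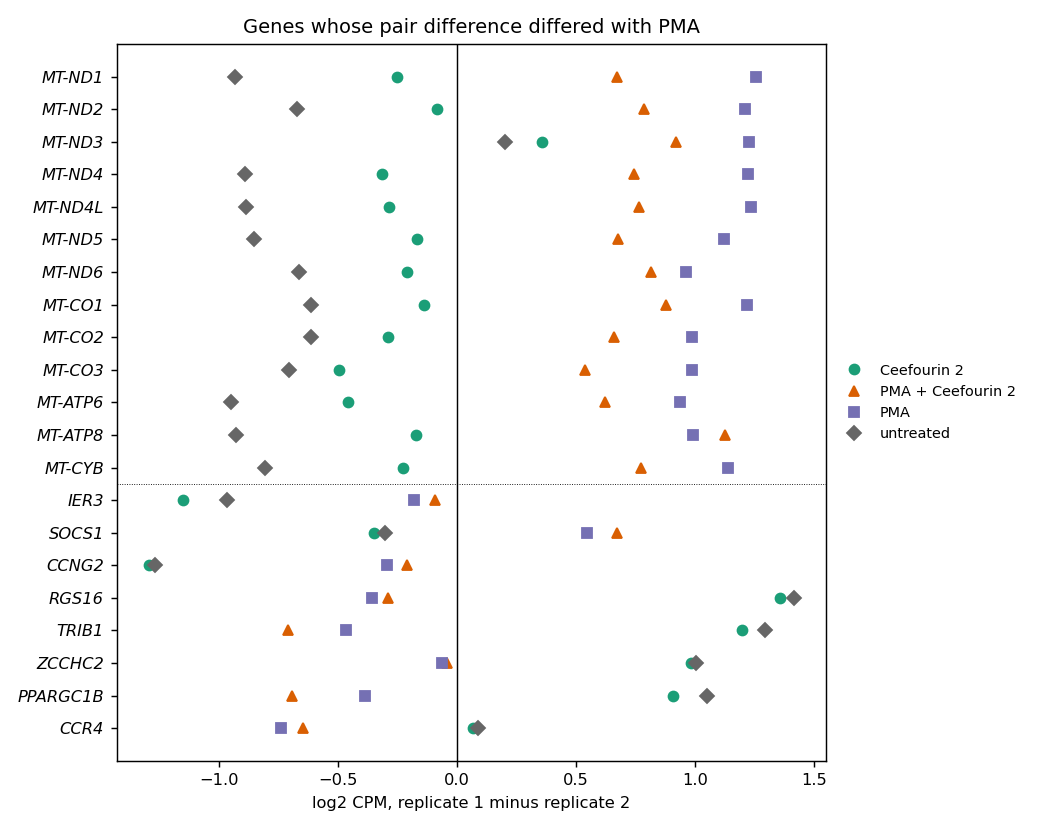
Pair differences (log2 CPM, replicate 1 minus replicate 2) in each group for the 13 mitochondrially encoded genes, above the dotted line, and for the named nuclear genes with an interaction with PMA, below it. For MT-CO1 the symbols of both PMA pairs lie right of 0 and those of both other pairs left, and RGS16 and TRIB1 show the reverse.

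Among nuclear genes RGS16, a regulator of G protein signalling, had 20.7, 46.4, 31.7 and 18.2 CPM in replicate 1, against 8.04, 56.7, 40.6 and 6.79 CPM in replicate 2 (interaction −1.71 ± 0.08, adjusted p = 0.000356). TRIB1, a pseudokinase that targets C/EBP proteins, had 21.6, 121, 300 and 14.4 CPM in replicate 1, against 9.38, 197, 414 and 5.86 CPM in replicate 2 (−1.83, adjusted p = 0.000379). Both were higher in replicate 1 without PMA and lower with it. The coactivator PPARGC1B (−1.52), ZCCHC2 (−1.05) and the chemokine receptor CCR4 (−0.77) followed the same sign. The immediate early gene IER3 had 10.6, 161, 46.3 and 2.37 CPM in replicate 1, against 23.5, 171, 52.4 and 4.66 CPM in replicate 2 (0.97, adjusted p = 0.00666). The cytokine-signalling inhibitor SOCS1 (0.95) and cyclin G2, CCNG2 (1.04), were also positive.

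The difference varied with transcript length in every pair. In 5 classes of about equal size, from the shortest to the longest transcripts, the median was −0.086, −0.059, −0.02, 0.009 and 0.061 over 17127 annotated genes. The share called higher in replicate 1 was 1.34% in the shortest class and 18.9% in the longest, and the share called lower 9.77% and 6.33%. Ribosomal protein genes had a median transcript length of 1857 bases and heat shock genes 2674, against 3115 for all. With an offset for length and GC content, added after the data were seen, 2558 genes were called, 1425 higher and 1133 lower.

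**Figure D5:**
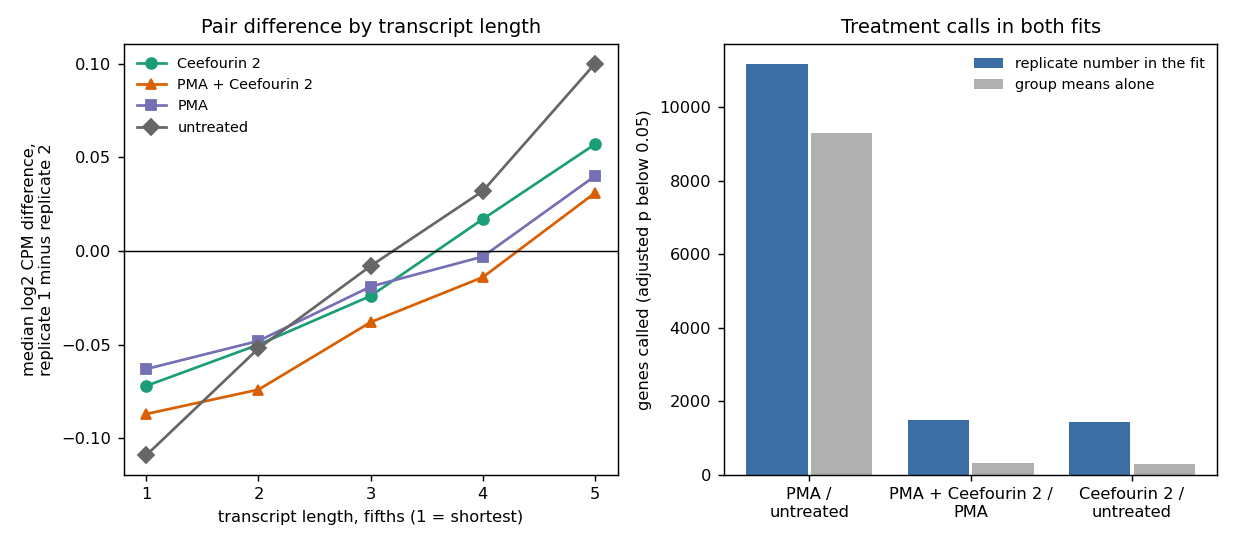
Left, median pair difference (log2 CPM, replicate 1 minus replicate 2) by 5 classes of transcript length, with a line for each group, which in each of them is lowest in the shortest class and highest in the longest. Right, genes called for 3 treatment comparisons with the replicate number in the fit (blue) and with group means alone (grey), where PMA plus Ceefourin 2 against PMA has 1482 and 317 and Ceefourin 2 against untreated 1430 and 291.

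The replicate number also bore on the treatment comparisons. PMA plus Ceefourin 2 against PMA had 1482 calls (8.56%) with the replicate number in the fit and 317 (1.83%) without it. Ceefourin 2 against untreated had 1430 (8.26%) with it and 291 (1.68%) without, and PMA against untreated 11155 (64.4%) with it and 9281 (53.6%) without. All 317 and all 291 genes were kept with the replicate number, and 9275 of the 9281. Of the genes gained, 413 of 1165 (35.5%), 387 of 1139 (34%) and 775 of 1880 (41.2%) were themselves called between the replicates. These shares follow that order of comparisons and stand beside 17.8% of all tested genes. Gained calls and replicate calls come from the same fit, so they are not independent and no conclusion is drawn from the shares.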

How the data were processed

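Stranded mRNA libraries of MEG-01 cells were sequenced by the authors from both ends, with reads aligned by STAR 2.7 to hg38 and quantified by RSEM 1.3.1, per the submitters' processing notes. Neither the annotation release nor the use of strand in counting is stated in these sources. Expected counts per gene, deposited by the authors without normalization, cover 60754 identifiers, and 7.06% to 7.84% of values per library were not whole (tolerance 1e-06), as RSEM divides reads that fit several genes. RSEM's TPM values, named so per the file headers and deposited beside the counts, entered only the limma alternatives. The 92 rows of ERCC spike-ins held 0 counts and were left out. Clone names were replaced by current symbols for 3196 identifiers. Positions, transcript lengths and GC content came from GENCODE 29 (GRCh38), which matched 58587 identifiers, and gene classes are those the authors deposited beside the counts.

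For edgeR 4.0.16 in R 4.3.3, expected counts were rounded to whole numbers. The filter filterByExpr within groups left 17314 of 60662 genes, libraries scaled by TMM (factors 0.92 to 1.083), and a quasi-likelihood fit used a mean per group and a replicate term on 3 residual degrees of freedom plus 4.49 shared across genes. Interactions with PMA and with Ceefourin 2 were fitted in the same way, and treatment comparisons with and without the replicate term. The replicate numbers come from the library names, and the pair differences correlated above 0.1 between every 2 pairs. Adjustment was by Benjamini-Hochberg over every tested gene, and SE is the absolute log2 difference over the square root of F. The scripts were tested on simulated data. Shares of counts were compared by an exact two-sided permutation test over 16 sign arrangements. For well-expressed genes counting error is small at these depths beside the spread between libraries, and no interval for it is given. For genes near the floor, such as ABCG1, or TUBB1 in cells without PMA, it can be a large part of a pair difference.

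The comparison and the 43 gene lists (1120 symbols, 2 not matched) were chosen with earlier results of these data known. Named genes are the 15 largest differences in each direction among called protein-coding genes with the same sign in all pairs and a mean of at least 5 CPM in a replicate, up to 4 called members of each list by smallest p (otherwise the member with the smallest p), the mitochondrially encoded genes, ABCC4, and up to 5 genes a direction for each interaction. The other called members named in the heat shock, clock and ATF4 lists were added after their values were seen. Alternatives were DESeq2 1.42.0 and its size factors, other filters, limma 3.58.1 on log2(TPM + 1) and log2(TPM + 0.1), removal of mitochondrially encoded genes, no group term, pairs with or without PMA, each library left out, and, added after the data were seen, a length and GC offset. Promoter windows are from RefSeq (GRCh38.p14).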

Additional observations from a re-analysis of the deposited data

Results flagged for a closer look

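The replicate difference itself differed between cells with and without PMA for 683 genes by the interaction test of edgeR, and the named genes among them are given here as log2 interactions, positive where the replicate 1 minus replicate 2 difference was larger with PMA. All 13 mitochondrially encoded genes were positive: MT-ND1 1.56, MT-ND2 1.38, MT-ND3 0.80, MT-ND4 1.58, MT-ND4L 1.58, MT-ND5 1.41, MT-ND6 1.33, MT-CO1 1.42, MT-CO2 1.28, MT-CO3 1.36, MT-ATP6 1.48, MT-ATP8 1.61 and MT-CYB 1.47. They were higher in replicate 1 in both pairs with PMA, which include the highest shares of mitochondrially encoded counts of all 8 libraries.

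Of nuclear genes, IKZF2 (0.89), TUBB1 (0.85), the cholesterol enzymes MSMO1 (0.37) and HMGCS1 (0.38), TXNIP (0.88), RSRP1 (0.33), IER3 (0.97), SOCS1 (0.95) and CCNG2 (1.04) had positive interactions. Negative ones were found for the chaperones HSPA1A (−1.43) and HSPA1B (−1.10), the interferon-stimulated IFI27 (−0.91), the mitochondrial helicase TWNK (−0.34), the clock gene NR1D1 (−0.83), thymidine kinase TK1 (−0.32), RGS16 (−1.71), TRIB1 (−1.83), ZCCHC2 (−1.05), PPARGC1B (−1.52) and CCR4 (−0.77).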

How the results depend on the processing

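Between the replicates, 3553 genes were called by DESeq2, 3050 with its size factors (1600 higher, 1450 lower), 3352 and 3678 with a filter at 1 CPM and with none, 3099 in the pairs with PMA and 3972 in those without. By limma the count was 430 on log2(TPM + 1), with 74.2% higher against 47.9% in edgeR, and 643 on log2(TPM + 0.1), with 72.9%. Without the group term it was 0 (664 at an unadjusted p below 0.05), and with 1 library left out 363 to 2167. Calls of PMA plus Ceefourin 2 against PMA were 1482 with the replicate block, 1211 with no filter, 799 by DESeq2 and 21 to 324 with a library left out. For Ceefourin 2 against untreated they were 1430, 1174, 837 and 30 to 188. The interaction with PMA had 2008 calls with no filter and 181 to 957 with a library left out, and that with Ceefourin 2 had 7 with no filter, 1 by DESeq2 and 0 to 3. The causes were not tested.

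In the pairs without PMA the mitochondrially encoded genes reversed, with a median of −0.516: MT-ND1 −0.592, MT-ND2 −0.378, MT-ND4 −0.602, MT-ND4L −0.584, MT-ND5 −0.509, MT-ND6 −0.445, MT-CO1 −0.374, MT-CO2 −0.452, MT-CO3 −0.601, MT-ATP6 −0.702, MT-ATP8 −0.547 and MT-CYB −0.516. With a library left out the median was −0.089 to 0.583, MT-ND1 −0.171 to 0.583, MT-ND4 −0.156 to 0.576, MT-ND4L −0.136 to 0.598, MT-ND5 −0.113 to 0.567, MT-CO2 −0.084 to 0.477, MT-CO3 −0.225 to 0.368, MT-ATP6 −0.265 to 0.393, MT-ATP8 −0.036 to 0.676 and MT-CYB −0.089 to 0.586. The share of the 50 most abundant genes was 0.306 points higher in replicate 1, and −0.905 without mitochondrially encoded counts. Of 166 called named genes none reversed under any alternative run, 66 were called with each library left out, and 138 under the length and GC offset, 141 of 162 in the pairs without PMA, 148 in those with PMA and 54 on log2(TPM + 1) remained. The 166 genes were picked by their calls in these same data, so the lack of a reversed sign was in part set by that choice. The median over all tested genes stayed between −0.023 and 0.035 under the alternatives.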

Other observations

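By chromosome, the 314 tested genes of chromosome 13 had a median of 0.073, with 51 higher in replicate 1 (16.2%) and 18 lower (5.73%). Its pair medians were 0.09 in Ceefourin 2, 0.044 in PMA plus Ceefourin 2, 0.038 in PMA and 0.081 in untreated cells. HSPH1, KCTD12, SOX21, DNAJC3 and ABCC4 lie on it. The 1243 genes of chromosome 19 had a median of −0.094, with 74 higher (5.95%) and 198 lower (15.9%), and pair medians of −0.125, −0.076, −0.046 and −0.084. The 634 genes of chromosome X had a median of −0.06, with 25 higher (3.94%) and 79 lower (12.5%). All other chromosomes with at least 100 tested genes had medians between −0.032 and 0.025.

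Processed pseudogenes had 61 of 825 tested members lower in replicate 1 (7.39%) and 2 higher (0.242%). Protein-coding genes had 1444 of 13563 lower (10.6%) and 1377 higher (10.2%). Long noncoding RNAs had 83 of 2193 lower (3.78%) and 61 higher (2.78%), and their share of counts differed by 0.008 percentage points on average (exact two-sided permutation p = 0.875).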
